A study of Homo sapiens with 3 samples.

Results

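The nuclear-encoded genes of oxidative phosphorylation were examined in sequenced RNA of 95D, an established cell line from human lung cancer. Members were the protein-coding genes with symbols beginning NDUF, SDHA, SDHB, SDHC, SDHD, UQCR, COX4, COX5, COX6, COX7, COX8 or ATP5, together with CYC1. The rule used names and no measured value. It found 54 genes among the 5932 listed in the glucose block of the deposited table and the same 54 in the glutamine block. In the annotation the same rule covers 103 protein-coding genes, and the other 49 were not analysed here. The listed share was 23 of 46 genes for complex I, 1 of 8 for complex II, 7 of 10 for complex III, 9 of 19 for complex IV and 14 of 20 for complex V.

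Wild-type 95D cells were grown for 48 h in glucose-deficient, glutamine-deficient or control conditions, and each condition gave 1 library. Per the labels' protocols, the deprived media carried 10% dialyzed serum, after 24 h of seeding in complete medium. The control is recorded with 10% serum and 24 h of seeding as well. The protocols describe capture of RNA from cell lysate with biotinylated long non-coding RNA DAMER as the bait for all 3 libraries, while the titles name plain RNA sequencing, so it is not settled whether the control library is a pulldown. A value is therefore the level in the sequenced library, as a share of its reads. Such a share measures neither the number of cells nor the RNA per cell, so fewer cells and less RNA per cell cannot be told apart. Since each condition has a single library, replicate spread is unknown and no test was made. The intervals printed are at 95% and cover counting error only, and reads without molecular identifiers are not independent molecules.

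Oxidative phosphorylation couples electron transfer along complexes I to IV of the inner mitochondrial membrane to ATP synthesis by complex V. Most subunits are encoded in the nucleus, translated in the cytosol and imported, while a small core set is encoded in mitochondrial DNA, so every complex except complex II is built from both genomes. Cells short of glucose or glutamine are known to shift the fuels that feed this chain.

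The libraries held 18775817 fragments in the glucose-deficient, 18301611 in the glutamine-deficient and 3781862 in the control library, totals recovered from the fixed steps of the RPM values (reads scaled to a common library total). Each listed region carries an offset of 0.5 fragment, so a region without reads is listed at 0.0266 RPM in the glucose-deficient, 0.0273 RPM in the glutamine-deficient and 0.132 RPM in the control library. At 0 fragments, levels of up to 0.160 RPM in the glucose-deficient, 0.164 RPM in the glutamine-deficient and 0.793 RPM in the control library are possible. ATF4 and its pseudogenes filled the deprived libraries, and everything outside that family made up 0.0689% of the glucose-deficient, 0.0790% of the glutamine-deficient and 99.97% of the control library. Of markers for the labelled cell type, 1 of 5 epithelial, 1 of 2 mesenchymal and 0 of 4 lung markers were listed. The keratin KRT8 stood at 6.48 RPM and the intermediate filament VIM at 77.7 RPM in the control, both with 0 fragments in the deprived libraries. Of the markers for leukocytes, fibroblasts, endothelium and erythroid cells, 0 of 3, 0 of 3, 0 of 2 and 0 of 2 were listed. No source used here gives how regions were chosen for listing, so an unlisted marker of any kind is not shown to be absent.

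Pairs of near-identical genes set what these values can be assigned to, so the clearest pair is shown first. UQCRH encodes the hinge subunit of complex III, which helps cytochrome c1 and cytochrome c interact, from 4 coding exons at chromosome 1, 46303631 to 46316776, plus strand (GRCh38, GENCODE release 29). UQCRHL is an intronless copy annotated as protein-coding at chromosome 1, 15807169 to 15809348, minus strand. Their coding sequences, from the GENCODE transcripts and without the stop codon, are given here 5′ to 3′ with the differing bases in capitals.
UQCRH: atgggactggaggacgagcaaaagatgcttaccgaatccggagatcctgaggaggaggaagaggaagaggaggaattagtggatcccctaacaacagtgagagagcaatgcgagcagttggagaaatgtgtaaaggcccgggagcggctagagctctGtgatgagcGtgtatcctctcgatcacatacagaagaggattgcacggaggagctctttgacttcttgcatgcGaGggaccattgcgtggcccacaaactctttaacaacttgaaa
UQCRHL: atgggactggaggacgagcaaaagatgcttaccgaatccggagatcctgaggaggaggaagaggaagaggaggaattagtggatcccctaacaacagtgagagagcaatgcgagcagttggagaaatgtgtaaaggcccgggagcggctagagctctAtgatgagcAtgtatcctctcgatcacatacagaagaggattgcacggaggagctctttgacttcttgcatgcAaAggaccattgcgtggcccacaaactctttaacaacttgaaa
The 273 bases differ at 4 positions, written G158A, G167A, G231A and G233A with the UQCRH base first and positions counted from 1 at the first base of the start codon, an identity of 98.5%. The longest stretch without a difference runs over 157 bases. UQCRHL had 0.0799 RPM (1 fragment) in the glucose-deficient, 0.0273 RPM (0 fragments) in the glutamine-deficient and 74.7 RPM (282 fragments) in the control library. UQCRH had 0.0266 RPM (0 fragments) under glucose deficiency, 0.0273 RPM (0 fragments) under glutamine deficiency and 16.8 RPM (63 fragments) in the control library. The copy thus held 4.48 times the control fragments of UQCRH (3.40 to 5.98) over a coding sequence of the same length. Their annotated transcripts differ in length, 2180 bases for UQCRHL and 604 for UQCRH, and per kb of transcript the control levels were 34.3 (30.3 to 38.4) and 27.8 RPM per kb (21.2 to 35.3), with intervals that overlap. No source used here gives how reads that match both genes were assigned, so neither value can be credited to 1 of the genes.

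Processed pseudogenes, intronless genomic copies of spliced mRNAs, raise the same question of read assignment, which was not examined for each copy. Besides the members, 9 processed pseudogenes named after genes of these families were listed, with 636 control fragments in all and 0 fragments in both deprived libraries. COX6A1P2, at chromosome 6, 37044860 to 37045189, had 176 control fragments (46.7 RPM) and matched the transcript of COX6A1, a complex IV subunit gene that was not analysed here, at 98.8% over 330 bases. ATP5MGP2 had 90 control fragments and matched ATP5MG of complex V at 96.1% over 311 bases. UQCRBP1 had 102 control fragments, against 67 for its source gene UQCRB, with 94.6% identity over 259 bases, and ATP5MC2P4 had 73 against 54.5 for ATP5MC2, with 94.0% over 420 bases. Of 10 such copies, UQCRHL included, 7 had a source gene that was not analysed here.

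The control library carries nearly all the data on these genes. The 54 members summed to 978 RPM over 89 distinct regions, 3655.5 fragments or 0.0967% of the library. Control levels ran from 4.23 to 89.2 RPM with a median of 15.0 RPM, next to 14.8 RPM over all 5931 genes tested. Only 6 members had more than 100 control fragments and 25 had fewer than 50. The number of listed regions per gene was 1 for 32 members, 2 for 11 and 3 or more for 11, up to 5 for ATP5F1B.

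**Figure D1:**
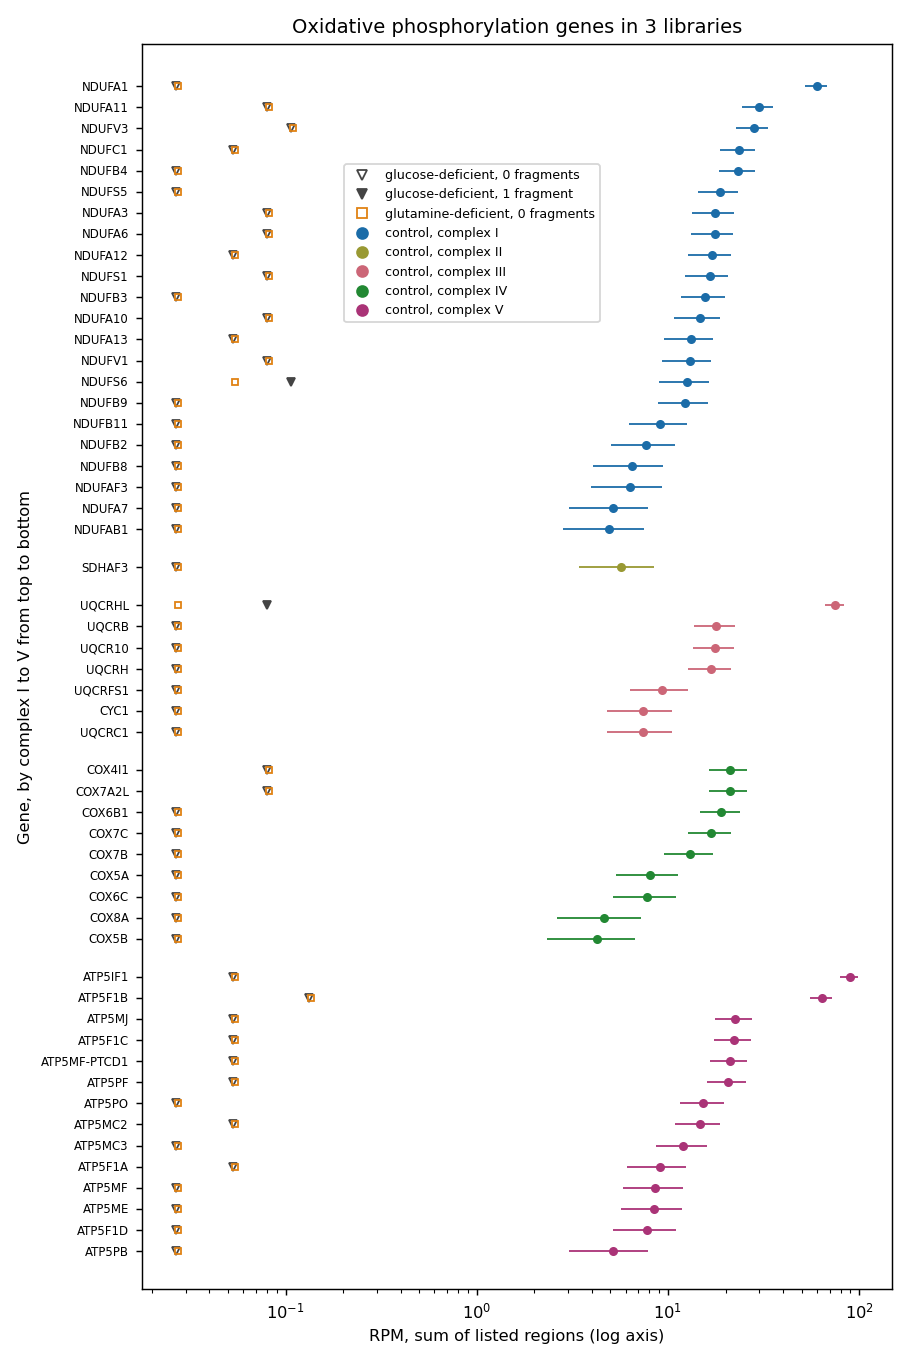
RPM of 53 members (log axis), summed over its listed regions, in the glucose-deficient (triangles), glutamine-deficient (squares) and control library (circles with 95% counting intervals), grouped by complex. Open symbols hold 0 fragments and show the summed offset; NDUFS6 and UQCRHL each had 1 fragment in the glucose-deficient library, and every control value lies above 4 RPM.

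Complex I, the NADH dehydrogenase that feeds electrons from NADH into the chain, held 1468 control fragments, 40.2% of those of all members. NDUFA1, a small accessory subunit encoded at chromosome X, 119871487 to 119876662, stood at 0.0266 RPM in the glucose-deficient, 0.0273 RPM in the glutamine-deficient and 60.0 RPM (226.5 fragments) in the control library. NDUFA11, an accessory membrane subunit, stood at 0.0799 RPM under glucose deficiency, 0.0820 RPM under glutamine deficiency and 30.0 RPM in the control. NDUFV3, an accessory subunit of the flavoprotein module, stood at 0.107 RPM under glucose deficiency, 0.109 RPM under glutamine deficiency and 28.2 RPM in the control. These genes had 0 fragments in both deprived libraries, and the differences between their deprived values follow the number of regions whose offsets are summed. NDUFC1, another accessory subunit, stood at 23.5 RPM in the control. The lowest of complex I was NDUFAB1, the mitochondrial acyl carrier protein, at 4.89 RPM (18 fragments). The catalytic core was represented by NDUFS1 at 16.5 RPM and NDUFV1 at 13.1 RPM in the control. The assembly factor NDUFAF3 stood at 0.0266 RPM under glucose deficiency, 0.0273 RPM under glutamine deficiency and 6.35 RPM (23.5 fragments) in the control.

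Complex II, succinate dehydrogenase, had no listed subunit. Its single listed member was SDHAF3, a factor that helps mature the iron-sulfur subunit, at 0.0266 RPM in the glucose-deficient, 0.0273 RPM in the glutamine-deficient and 5.69 RPM (21 fragments) in the control library. The genes of the subunits were not analysed here.

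Complex III, the cytochrome bc1 complex that passes electrons from ubiquinol to cytochrome c, held 567.5 control fragments, 15.5% of those of all members, and 282 of them lay in UQCRHL. UQCRB and UQCR10, small structural subunits, stood at 17.8 and 17.6 RPM in the control. The Rieske iron-sulfur protein gene UQCRFS1 stood at 9.25 RPM. CYC1, which encodes cytochrome c1, and the core protein gene UQCRC1 were lowest, each at 7.40 RPM (27.5 fragments). All these genes other than UQCRHL had 0 fragments in both deprived libraries.

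Complex IV, cytochrome c oxidase, held 431.5 control fragments, 11.8% of the total. COX4I1, the nuclear regulatory subunit, and COX7A2L, a factor that joins complexes III and IV into supercomplexes, had the same control level, 21.2 RPM (78.5 fragments each). COX6B1 stood at 18.9 RPM and COX7C at 16.8 RPM. COX5B was the lowest of complex IV and of the 54 members, at 0.0266 RPM in the glucose-deficient, 0.0273 RPM in the glutamine-deficient and 4.23 RPM (15.5 fragments) in the control library.

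Complex V, the ATP synthase, held 1167.5 control fragments, 31.9% of the total. Its highest member was ATP5IF1, which encodes the inhibitor that stops the synthase from hydrolysing ATP, at chromosome 1, 28236109 to 28246906. Its level was 0.0533 RPM (0 fragments) in the glucose-deficient, 0.0546 RPM (0 fragments) in the glutamine-deficient and 89.2 RPM (336.5 fragments) in the control library. ATP5F1B, the catalytic beta subunit, stood at 0.133 RPM under glucose deficiency, 0.137 RPM under glutamine deficiency and 63.9 RPM (239 fragments) in the control, with 5 control regions of 7.01 to 22.3 RPM each. ATP5F1A, the alpha subunit of the same hexamer, stood at 9.12 RPM (33.5 fragments) in the control. ATP5MJ, a small proteolipid of the membrane sector, and ATP5F1C, the gamma subunit of the rotor, stood at 22.3 and 22.1 RPM. ATP5PB of the peripheral stalk was lowest, at 5.16 RPM (19 fragments). ATP5IF1, UQCRHL and ATP5F1B together held 857.5 fragments, 23.5% of the total.

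Levels of different genes are comparable only per length. Control RPM was therefore divided by the length of the transcript with the longest coding sequence. These values cover listed regions only and may understate genes with unlisted parts. ATP5IF1 had the highest control level, 181 RPM per kb (161 to 200), followed by NDUFA1 with 78.4 (68.3 to 89.1), COX6B1 with 43.5 and ATP5PF, a peripheral stalk subunit, with 41.9. Between neighbours in this order the counting interval of the ratio lay above 1 in 2 of 53 pairs, ATP5IF1 over NDUFA1 at 2.30 (1.94 to 2.74) and NDUFA1 over COX6B1 at 1.81 (1.38 to 2.40). The remaining 51 neighbours did not differ beyond counting error. The lowest were UQCRFS1 with 2.66 and ATP5PB with 1.63 RPM per kb. Per coding length, NDUFA1 stood first with 286 RPM per coding kb, before ATP5IF1 with 281 and UQCRHL with 274, so the order at the top depends on the length used. In the deprived libraries the per-length level of ATP5IF1 was 0.108 RPM per kb under glucose and 0.111 RPM per kb under glutamine deficiency, all of it offset.

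**Figure D2:**
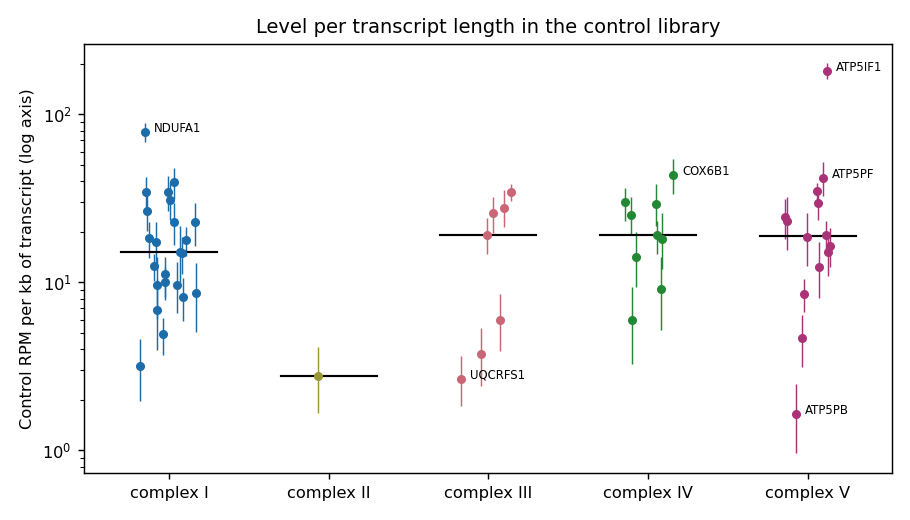
Control RPM per kb of transcript (log axis) for each member, by complex, with 95% counting intervals and the median of each complex as a black line. Medians were 15.2 RPM per kb for complex I and 18.8 to 19.2 RPM per kb for complexes III, IV and V; ATP5IF1 and NDUFA1 stand above the rest.

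Some members share reads with another gene. By equal values in nearby entries of genes at 1 locus, 15 regions of 12 members were shared, and for 10 members every listed region was. ATP5MF, a membrane subunit of complex V, and ATP5MF-PTCD1, a readthrough gene, hold the same region of 8.59 RPM in the control. The other ATP5MF-PTCD1 region, 12.6 RPM, also belongs to CPSF4, a gene of the polyadenylation machinery on the opposite strand, and to a gene with a clone-based name. The larger NDUFC1 region, 17.3 RPM, was shared with NAA15 on the opposite strand. NDUFA11 (3 regions, 30.0 RPM) and NDUFA13 (2 regions, 13.2 RPM) share all their regions with overlapping genes that carry clone-based names, as do the single regions of ATP5PO (15.3 RPM), COX8A (4.63 RPM), NDUFB8 (6.48 RPM) and NDUFA7 (5.16 RPM). The single NDUFB2 region (7.67 RPM) was shared with a gene on the opposite strand, 1 of the 3 NDUFS1 regions (5.95 RPM) with an antisense gene, and the UQCR10 region (17.6 RPM) with an identifier that has no locus in the annotation used. No source used here gives whether counting used strand, so these reads cannot be told apart. With the shared regions left out, the members summed to 834 RPM in the control.

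The comparison of the glucose-deficient with the control library asks how these genes stood under glucose deprivation. All 54 members were at least 2-fold lower on the log2(RPM + 1) scale, where 99.9% of the 5931 genes tested were lower, so the count is that of the background. Every member passed the 1 RPM filter through the control alone, at 4.23 RPM or more there and at most 0.133 RPM in the glucose-deficient library. The count of lower members therefore follows from how genes entered the comparison and is no separate support for a change. At least 2-fold higher were 0 members, against 0.118% of genes tested. Their median log2 ratio was −3.94, next to −3.92 over all genes tested, and the scale understates the difference of low genes. A count of 0 fragments was found for 52 members (96.3%), against 90.9% of genes tested. Bounds were first taken against a floor of 3 fragments per library, with the control count taken as exact. On those terms ATP5IF1 was at least 557-fold lower, ATP5F1B at least 396-fold, NDUFA1 at least 375-fold and COX5B at least 25.7-fold. These bounds are set by each gene's control level and put the genes in no order. With counting error in both libraries, the lower 95% limits of these folds were 450 for ATP5IF1, 319 for ATP5F1B, 302 for NDUFA1 and 18.5 for COX5B. The only fragments were 1 in NDUFS6, a subunit of the iron-sulfur part of complex I, and 1 in UQCRHL. NDUFS6 stood at 0.107 RPM in the glucose-deficient library, 0.0546 RPM (0 fragments) in the glutamine-deficient and 12.6 RPM (46.5 fragments) in the control, and its depth-scaled fragments were 231-fold below the control (39.4 to 9312). Those of UQCRHL were 1400-fold below the control (249 to 55492).

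These calls rest on scaling by all reads, most of which were ATF4. When the ATF4 family was left out of the totals, 0 members were at least 2-fold lower and 49 higher, with a median of 2.13, because a region without fragments then carries an offset of 38.7 RPM. Neither direction is therefore a measurement of these genes, and the fragments themselves are compared below.

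**Figure D3:**
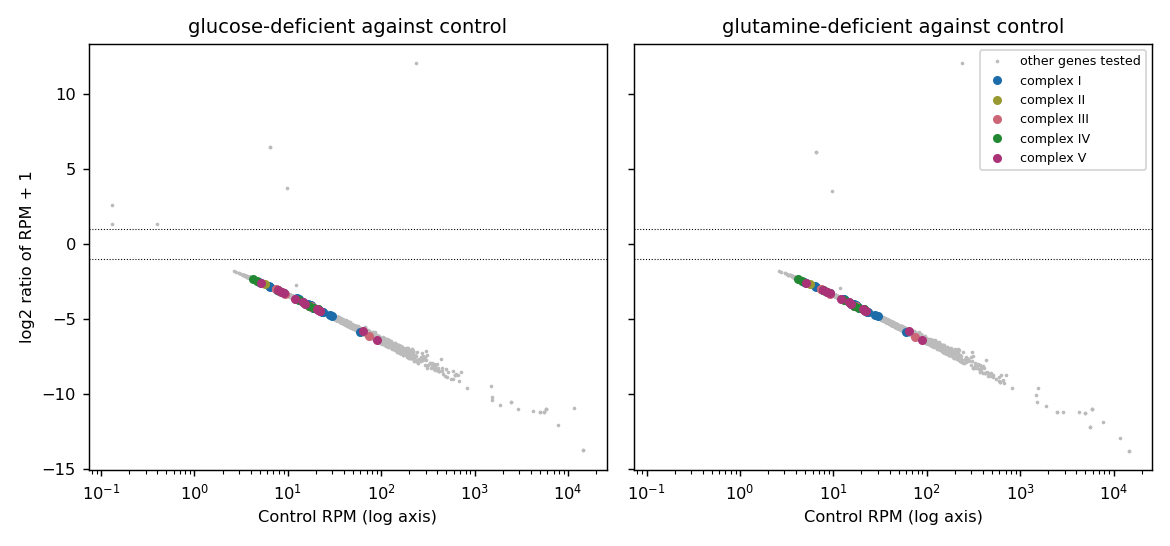
log2 ratio of RPM + 1 in the glucose-deficient (left) and glutamine-deficient library (right) over the control, against control RPM (log axis); grey points are other genes tested, coloured points are members by complex, and dotted lines mark a 2-fold difference. Members lie on the band that the genes with 0 fragments form, between −6.42 and −2.35.

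In the glutamine-deficient library all 54 members had 0 fragments, as did 99.2% of the 5928 genes tested. All 54 were at least 2-fold lower than in the control, where 99.9% of genes tested were lower, and 0 members were at least 2-fold higher, against 0.0675%. Here too every member passed the filter through the control alone, with at most 0.137 RPM in the glutamine-deficient library. The median log2 ratio was −3.94, next to −3.93 over all genes tested. Against the same floor, and with the control count again taken as exact, ATP5IF1 was at least 543-fold lower. UQCRHL was then at least 455-fold lower, ATP5F1B at least 386-fold and NDUFA1 at least 365-fold. Their lower 95% limits with counting error in both libraries were 439 for ATP5IF1, 368 for UQCRHL, 311 for ATP5F1B and 295 for NDUFA1. When the ATF4 family was left out of the totals 1 member was at least 2-fold lower and 46 were higher, with a median of 1.97, for the reason given above. Between the deprived libraries the members differed by 2 fragments in all, and 0 members reached the 1 RPM needed in either of them, so no comparison of single members is possible (18.8% of the 16 genes open to that comparison had a 2-fold higher level under glucose deficiency).

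Counts of fragments are free of the scaling when genes are set against each other within a library. The members kept 0.547 fragments per 1000 control fragments in the glucose-deficient library (2 of 3655.5, interval 0.0662 to 1.98). Other nuclear protein-coding genes, taken over regions with at least the 12 control fragments of the lowest member region, kept 1.22 per 1000 (1.12 to 1.32). At that rate the members would have had 4.44 fragments. The members' rate was 0.450 times that of these genes (0.0544 to 1.63), an interval that includes 1. Without UQCRHL the members kept 0.296 per 1000, and the ratio was 0.244 (0.00616 to 1.36).

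In the glutamine-deficient library the members kept 0 of 3655.5 control fragments, which allows up to 1.01 per 1000. Other nuclear protein-coding genes, over regions with the same minimum of 12 control fragments, kept 0.0469 per 1000 there (0.0298 to 0.0704). At that rate the members would have had 0.172 fragments, so a difference from these genes was not detectable at this depth.

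The mitochondrial mRNAs are the counterpart of these genes from the other genome. The 8 listed ones, which encode subunits of complexes I, IV and V, held 92006 control fragments in 7 regions, 2.43% of the control library and 25.2 times the fragments of the 54 nuclear members (24.4 to 26.0). Per 1000 control fragments they kept 0.962 in the glucose-deficient (0.772 to 1.18) and 1.07 in the glutamine-deficient library (0.870 to 1.30). The nuclear members' rate was 0.569 times the mitochondrial one under glucose deficiency (0.0678 to 2.12). Under glutamine deficiency it was 0, with an upper limit of 0.960, where the mitochondrial rate would have given 3.91 fragments. That upper limit was 1.04 without UQCRHL and 1.13 without shared regions, so this difference does not hold under those choices. The other nuclear protein-coding genes showed the same direction with more counts, at 0.0438 times the mitochondrial rate in the glutamine-deficient library (0.0266 to 0.0696) but 1.26 times in the glucose-deficient library (1.01 to 1.60). In the glutamine-deficient library this gap was found for nuclear protein-coding genes in sum, over regions with at least 12 control fragments. They held 23 fragments there, for 490064 in the control. The gap cannot be read gene by gene, because 99.2% of genes tested had 0 fragments in that library. The 17 regions of other nuclear genes below 12 control fragments kept 68.8 per 1000 in that library (34.9 to 123). How the listing of regions by their values affects the gap was not tested.

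**Figure D4:**
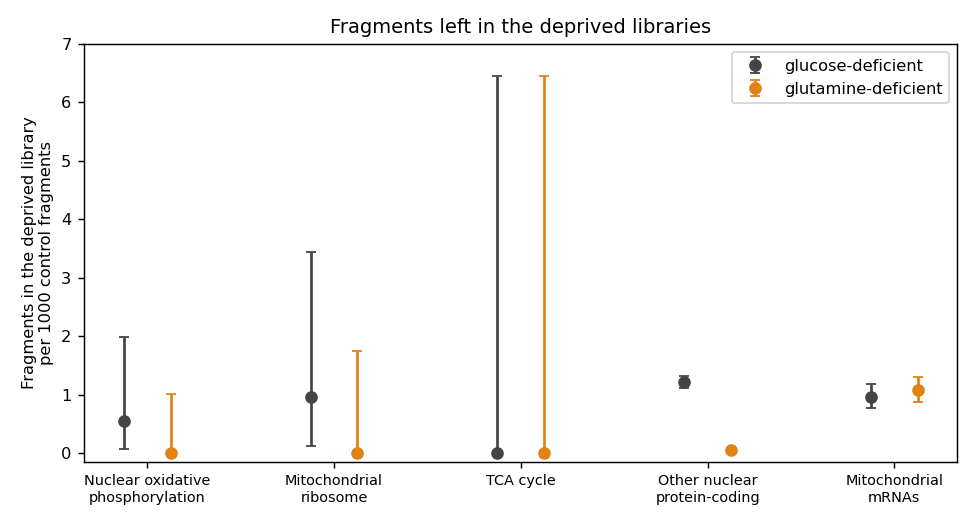
Fragments in the glucose-deficient and glutamine-deficient libraries per 1000 control fragments for 5 sets of genes, with 95% counting intervals. Under glucose deficiency members kept 0.547, mitochondrial mRNAs 0.962 and other nuclear protein-coding genes 1.22. Under glutamine deficiency they kept 0, 1.07 and 0.0469. The other nuclear protein-coding genes were taken over regions with at least 12 control fragments. Regions of other nuclear genes below that level are not drawn and kept 1194 (glucose) and 68.8 (glutamine).

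Other genes of the pathway also had few or 0 fragments in the deprived libraries. Over all genes tested 99.9% were lower in each deprived library, and 0 fragments were found for 90.9% under glucose and 99.2% under glutamine deficiency, so the counts that follow are near the background and particular to none of the lists. The lower calls also rest on scaling by all reads and on a filter passed through the control alone, as for the members. Of 78 mitochondrial ribosomal protein genes in the annotation 40 were tested, and all 40 were at least 2-fold lower in each deprived library on the RPM scale. In the glucose-deficient library MRPL37 and MRPS26 had 1 fragment each, against 243.5 and 32 in the control, and the other 38 had 0. All 40 had 0 in the glutamine-deficient library. The 7 tested of 14 genes of the tricarboxylic acid cycle had 0 fragments in both deprived libraries, with CS, citrate synthase, at 270.5 control fragments and MDH2, malate dehydrogenase, at 166.5. Of 4 electron carriers 3 were tested and had 0 fragments, with cytochrome c, CYCS, at 101 control fragments. Of 12 regulators of mitochondrial biogenesis 2 were tested, PPRC1, a coactivator of the PGC-1 family, with 244 control fragments and YY1, a transcription factor, with 105, and both had 0 in the deprived libraries.

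Of 32 assembly and maintenance factors outside the symbol rule 8 were tested, and all 8 were at least 2-fold lower in each deprived library, as were 99.9% of genes tested. LRPPRC, which stabilises mitochondrial mRNAs, had 2 fragments in the glucose-deficient, 0 in the glutamine-deficient and 71 in the control library. UQCC1, an assembly factor of complex III, lay under the 1 RPM minimum, and its glutamine-deficient value was not analysed here. It had 0.612 RPM (11 fragments) in the glucose-deficient library and 0.397 RPM (1 fragment) in the control. Scaled by all reads, the ratio of UQCC1 fragments had an interval from 0.322 to 95.4, which includes 1. Without that scaling, the listed assembly and maintenance factors kept 13 of 287.5 control fragments in the glucose-deficient library, 45.2 per 1000 (23.8 to 78.6), of which UQCC1 gave 11 and LRPPRC 2. The UQCC1 region lies below the 12 control fragments of the lowest member region, and the 21 regions of other nuclear genes below that level kept 1194 per 1000 (974 to 1466). How such regions came to be listed was not tested.

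Genes of this pathway are known to be controlled in part by NRF1 and by ETS factors such as GABPA. Promoters were therefore searched for their motifs and that of YY1 in RefSeq windows (GRCh38.p14) of 250 bases before to 50 after the start, available for 42 of the members. The NRF1 core motif, on either strand, was found in 12 of 42 (28.6%), against 15.5% of 3601 other listed protein-coding genes and 8.58% of all 15843. The ETS core CCGGAAG was found in 11 of 42 (26.2%), against 22.0% and 14.2%. The YY1 motif was found in 1 of 42 (2.38%), against 3.11% and 1.37%. At least 1 of the 3 motifs was found in 21 of 42 (50%), against 35.7% and 21.9%. No interval was computed for these shares, which rest on 42 promoters, and their differences were not tested. The 250 bases before the RefSeq start are shown for NDUFB4, with 2 NRF1 matches, for the rotor gene ATP5F1C, with 1, and for NDUFA1, with an ETS match. They run 5′ to 3′ along the gene with the matches in capitals.
NDUFB4 (chr3:120596086-120596335, plus strand): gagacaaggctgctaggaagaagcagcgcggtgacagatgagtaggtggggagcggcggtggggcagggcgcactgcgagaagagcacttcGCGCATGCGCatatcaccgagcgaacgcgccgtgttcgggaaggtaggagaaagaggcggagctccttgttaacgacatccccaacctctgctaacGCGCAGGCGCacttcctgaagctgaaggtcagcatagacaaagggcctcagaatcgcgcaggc
ATP5F1C (chr10:7787927-7788176, plus strand): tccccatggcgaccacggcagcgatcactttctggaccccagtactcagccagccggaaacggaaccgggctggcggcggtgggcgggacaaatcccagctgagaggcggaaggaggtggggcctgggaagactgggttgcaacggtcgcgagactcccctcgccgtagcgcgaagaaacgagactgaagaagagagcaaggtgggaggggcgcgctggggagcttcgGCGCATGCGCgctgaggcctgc
NDUFA1 (chrX:119871582-119871831, plus strand): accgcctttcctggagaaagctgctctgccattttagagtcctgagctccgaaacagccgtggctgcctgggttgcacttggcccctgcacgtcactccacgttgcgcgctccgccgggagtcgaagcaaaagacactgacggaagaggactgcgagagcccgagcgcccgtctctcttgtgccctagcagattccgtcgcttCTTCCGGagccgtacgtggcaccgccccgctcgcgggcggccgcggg
RefSeq and GENCODE starts differ for these genes. The NDUFA1 window lies wholly inside the GENCODE gene, which begins at 119871487, so it is upstream of the RefSeq start only. The NDUFB4 and ATP5F1C windows also reach past their GENCODE gene starts, at 120596309 and 7788129. The NDUFB4 matches lie before the GENCODE start. The ATP5F1C match begins 22 bases before the RefSeq start and lies inside the GENCODE gene. NDUFB4 is an accessory subunit gene of complex I, at 23.1 RPM in the control. These matches describe letters in the windows and were not tested as binding sites, and the libraries hold no measurement at promoters.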

How the data were processed

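The deposited values are RPM per the file headers, reads scaled to a common library total. The submitters' processing notes name HISAT2 2.0.5 and the build hg38. No source used here gives the region calling, the choice of listed regions, the annotation or the use of strand. The series table sets blocks of 14338 and 14333 entries side by side, which pair each deprived library with the control. The description given for the glutamine-deficient sample points to the glucose column, and the column was mapped by its name, with values equal to that sample's own deposited file. In each block 691 entries name no gene (4.82% in the glucose block) and were left out.

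The RPM steps gave multiples of 0.5 fragment after an offset of 0.5 fragment was taken off, with a largest distance from a step of 0.00366 fragment below 1000 RPM. In the control 36.7% of entries were not whole numbers of fragments. A gene was the sum of its regions. Entries at most 5 rows apart with equal values, of genes within 1000 bases in GENCODE release 29, were taken as 1 region. Genes reaching 1 RPM in at least 1 library of a pair were compared as log2(RPM + 1). Intervals use the exact Poisson (levels) and exact conditional binomial (ratios, rates) formulas at 95%, and a floor is 3 fragments. Where fragments were not whole numbers these formulas are approximate. Some of these steps were run on simulated data, and no result of that run is given here. It is no evidence for the merging of regions, for fragments that are not whole numbers or for libraries filled by ATF4. No test was made, since each group has 1 library.

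Members and lists were chosen with earlier results of these data known. Named genes are, per complex, the 4 highest and the lowest by control RPM, members with fragments in a deprived library, members that share a region and assembly factors; further genes were named after their values were seen. Alternatives covered the pseudocount, filter, offset, scaling, region choice, shared regions and assembly factors; leaving out UQCRHL was chosen after seeing the data. Copies were compared with blastn 2.17.0, in Python 3.11.15 with scipy 1.17.1, numpy 2.4.6, pandas 2.3.3 and matplotlib 3.10.9. The value of 1 member is not reported here by itself and enters sums and counts only.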

Additional observations from a re-analysis of the deposited data

How the results depend on the processing

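No paired analysis was possible because each condition has 1 library, and no replicate could be left out. Of 55 alternatives over 8 results, 39 stayed within the counting interval or within 1.5 times the count. Some of these could not have moved, so the tally does not measure stability. Dropping the filter adds no member, since the lowest had 4.23 RPM in the control. Any subset of the members keeps 0 fragments in the glutamine-deficient library. The count of 54 lower members became 0 (glucose) and 1 (glutamine) with the ATF4 family left out of the totals, and 0 in each with median-of-ratios scaling, which rests on 23 genes. The medians of −3.94 reversed to 2.13 and 1.97 with that family out, and to 2.66 and 2.95 with median-of-ratios scaling; the scaled offset of regions without fragments makes these values. They were −4.83 and −4.82 at a pseudocount of 0.5, −1.99 in both at 5, and −3.26 in both with the largest region of each gene. The summed control level, 978 RPM, was 727 RPM with the largest region and 834 RPM without shared regions. Depth limits what can be said: 25 members had fewer than 50 control fragments, and 2 fragments in all stood in the deprived libraries.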
